A study of Mus musculus with 22 samples.

Results

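The ETS factor loci examined here are 3 windows of the mouse genome (build mm9) named for 5 genes of endothelial ETS transcription factors: Erg and Ets2 (chr16, 95.50 to 96.02 Mb), Fli1 and Ets1 (chr9, 32.15 to 32.65 Mb) and Etv6 (chr6, 133.93 to 134.27 Mb). That each window holds its named genes was not checked against an mm9 annotation, so a gene name below stands for its window. The members are the accessible regions, called from ATAC-seq, whose midpoint lies in a window. That gave 170 of the 57267 control regions and 128 of the 49558 gTKO regions on chromosomes 1 to 19, X and Y, or 298 members over both lists. ATAC-seq uses the Tn5 transposase to cut and tag open chromatin, and each region is a stretch in which such cuts piled up.

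The cells were endothelial cells sorted from retinas of C57BL/6 pups at postnatal day 6, although the cell type entry of the labels also calls them adult. Control pups were S1pr3-/- S1pr1flox/flox S1pr2flox/flox and carried no recombinase. The gTKO pups had the same alleles plus Rosa26-CreERT2, a tamoxifen-dependent recombinase driven from a broadly active locus, so that deletion of S1pr1 and S1pr2 was not limited to endothelium. Both genotypes thus lacked S1pr3, a receptor for the circulating lipid sphingosine 1-phosphate, and both received 100 µg tamoxifen from postnatal day 1 to 3. Each of the 3 libraries per genotype pooled retinas from 4 to 6 pups, but the libraries of a genotype share 1 peak list. The values below therefore describe 2 lists, have no replicate error and give no p-value between genotypes. Read depth is unknown, and its part in the differences was not tested. A region absent from a list could reflect fewer cells with open chromatin there or less accessibility per cell, which cannot be told apart in bulk libraries. The labelled cell type was not checked against marker genes, because an mm9 annotation was not used here. For the same reason a region is described by position only and is not assigned to a promoter, exon or intron, or, in the shared windows, to 1 of the 2 genes.

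ETS factors bind DNA through a conserved ETS domain that recognises a GGAA core. Erg and Fli1 are closely related activators that maintain endothelial identity and cell junctions, and both act on many endothelial enhancers. Ets1 and Ets2 form another closely related pair, which respond to growth factor signalling through MAP kinases and take part in angiogenesis. Etv6 is mainly a repressor, required for blood stem cells and for vessel development in embryos. In the RefSeq annotation of GRCm38.p6, a later build used here only for gene order, Erg and Ets2 are neighbours on chromosome 16 with 3 non-coding genes and 0 protein-coding genes between them. The same holds for Fli1 and Ets1 on chromosome 9, also with 3 non-coding genes and 0 protein-coding genes between them.

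Promoter sequences from RefSeq (GRCm38.p6) matched 3 of the 5 genes and are shown to give the regulatory DNA of these genes as letters. They hold the 250 bases upstream of a transcription start, 5′ to 3′ on the strand of the gene, with each GGAA or its reverse complement TTCC in capitals. For Erg, with 3 annotated starts, the outermost start is shown. Fli1 and Ets1 are named only. These positions belong to GRCm38.p6 and cannot be set against the mm9 regions below, so it was not determined which regions contain them.
Erg, chr16:95586594-95586843, minus strand: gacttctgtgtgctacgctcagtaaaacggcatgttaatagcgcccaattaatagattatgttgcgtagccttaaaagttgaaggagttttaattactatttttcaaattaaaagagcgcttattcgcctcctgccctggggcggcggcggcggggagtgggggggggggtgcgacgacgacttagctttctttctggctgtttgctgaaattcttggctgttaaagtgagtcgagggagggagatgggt
Ets2, chr16:95702157-95702406, plus strand: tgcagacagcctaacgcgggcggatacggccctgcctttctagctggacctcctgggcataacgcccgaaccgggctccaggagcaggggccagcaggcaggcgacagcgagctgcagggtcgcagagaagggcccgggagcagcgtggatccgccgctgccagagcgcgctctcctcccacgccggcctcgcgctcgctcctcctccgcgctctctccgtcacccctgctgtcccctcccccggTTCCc
Etv6, chr6:134035450-134035699, plus strand: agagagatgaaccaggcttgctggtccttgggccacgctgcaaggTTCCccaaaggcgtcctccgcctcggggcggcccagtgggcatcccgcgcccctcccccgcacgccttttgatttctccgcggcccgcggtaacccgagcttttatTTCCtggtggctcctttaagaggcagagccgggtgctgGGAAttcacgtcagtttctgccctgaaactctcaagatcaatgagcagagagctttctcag

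The Ets2 promoter is the richest of these in G and C (71.6%, with 25 CpG), followed by Etv6 (60.4%, 16 CpG) and the outermost Erg promoter (48.8%, 14 CpG). The median over the 32851 promoter windows of the table was 52.4% with 6 CpG. GGAA or TTCC occurred 0 times in the outermost Erg promoter, 1 time in that of Ets2 and 3 times in that of Etv6. The inner Erg starts had 4 and 2 matches. Of all such promoter windows, 93.4% hold at least 1 match, with a median of 3. Neither the longer ETS site CCGGAA (either strand), present in 12.0% of promoter windows and itself containing the GGAA core, nor the AP-1 site TGANTCA, present in 6.75%, occurred in any of the 5 promoter windows of Erg, Ets2 and Etv6. A match or its absence describes these letters only.

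The comparison of the lists addresses whether accessible chromatin at these loci differs between pups with and without the recombinase that targets S1pr1 and S1pr2. The Erg-Ets2 and Fli1-Ets1 windows held fewer regions and less covered sequence in gTKO, while the Etv6 window held equal numbers. Around Erg and Ets2 there were 58 control and 39 gTKO regions, covering 27090 and 17586 bp. Around Fli1 and Ets1 the numbers were 84 and 61, covering 41426 and 27885 bp. At Etv6, 28 regions stood in each list, covering 15593 and 14180 bp. The ratio of control to gTKO covered sequence was 1.54, 1.49 and 1.10 in these windows, against 1.30 over all placed regions. Since covered sequence depends on how much was called, the mean widths are given beside it. They were 467 bp (control) and 451 bp (gTKO) at Erg-Ets2, 493 and 457 bp at Fli1-Ets1, and 557 and 506 bp at Etv6. The larger ratios of the first 2 windows came with region counts 1.49 and 1.38 times those of gTKO, against 1.16 over all placed regions and 1.00 at Etv6. Width differed as well. Where 1 control and 1 gTKO region overlapped only each other, the median width ratio was 1.27, 1.28 and 1.06 in the 3 windows, against 1.15 overall. The control means include regions without gTKO overlap, whose median width was 194 bp at Erg-Ets2 and 207 bp at Fli1-Ets1. Those regions covered 5417 and 8056 bp there.

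Against tiles of whole chromosomes, sparse parts included, all 3 windows were rich in regions for their length. Windows around other genes were not compared, so this richness is not shown to be particular to ETS loci. When the placed chromosomes were cut into consecutive tiles of 500 kb, the median tile held 6 control regions, and 16 of 5291 tiles (0.302%) held at least as many as the 84 of the Fli1-Ets1 window. For the Erg-Ets2 window, 82 of 5089 tiles of 520 kb (1.61%) held at least 58 control regions. Tiles of 340 kb with at least the 28 control regions of the Etv6 window numbered 401 of 7776 (5.16%). In the gTKO list the corresponding shares were 0.548%, 3.67% and 3.36%, so each window stayed among the denser parts of both lists. Among tiles of the same length with at least 20 control regions, 9.28% had a covered-sequence ratio as high as that of Erg-Ets2 and 12.5% one as high as that of Fli1-Ets1. The ratio of Etv6 was low by the same measure, with 94.8% of such tiles at or above it.

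**Figure D1:**
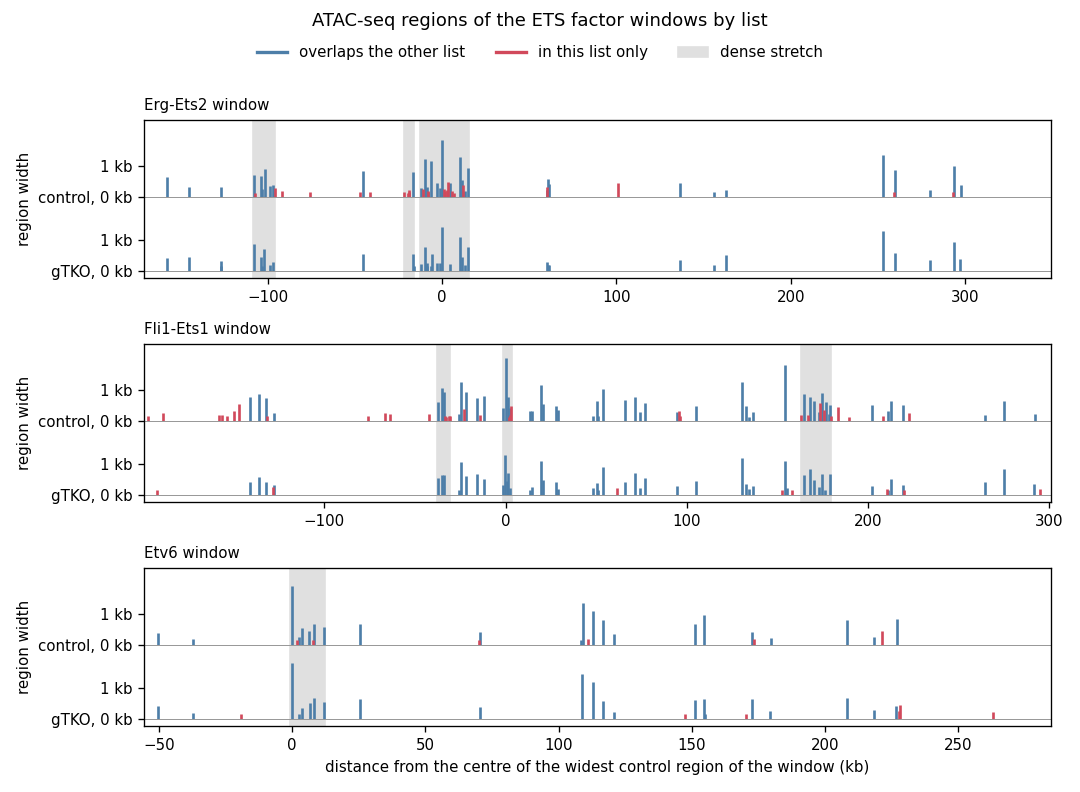
Accessible regions of the 3 windows, with distance in kb from the centre of the widest control region on the horizontal axis and a vertical line per region whose height is its width in kb (control above, gTKO below). Red lines are regions called in that list alone, which in the Erg-Ets2 window occur in the control list (23 regions) and not in the gTKO list (0 regions), and grey bands mark the 7 dense stretches.

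Regions called in the control list alone were numerous at Erg-Ets2 and Fli1-Ets1. An overlap of 1 bp or more between the lists made both regions shared. Over all placed regions, 27.0% of control regions and 9.75% of gTKO regions had no partner. In the Erg-Ets2 window, 23 of 58 control regions had none (39.7%, exact 95% interval 27.0 to 53.4%), and of the 39 gTKO regions 0 had none (interval 0 to 9.03%). Every gTKO region of that window thus overlapped a control region. If 50% of each region had to be covered by its partner, 29 of 58 control regions (50.0%, 36.6 to 63.4%) and 10 of 39 gTKO regions (25.6%, 13.0 to 42.1%) of this window were without one, against 34.8% and 24.6% of all placed regions under that rule. At Fli1-Ets1, 32 of 84 control regions (38.1%, 27.7 to 49.3%) and 8 of 61 gTKO regions (13.1%, 5.84 to 24.2%) lacked a partner. Etv6 had 6 of 28 in each list (21.4%, 8.30 to 41.0%). These intervals cover counting error only and treat regions as independent, and those of the 3 windows overlap each other. The lower bounds at Erg-Ets2 and Fli1-Ets1 lay at or just above the share of 27.0% over all placed control regions. With the narrowest control regions of the genome removed until the lists were equally long, control-only regions numbered 14 of 48 at Erg-Ets2 (29.2%, 17.0 to 44.1%), 21 of 71 at Fli1-Ets1 (29.6%, 19.3 to 41.6%) and 3 of 24 at Etv6 (12.5%, 2.66 to 32.4%). Over all placed regions the share was then 20.2% of control regions, within the Erg-Ets2, Fli1-Ets1 and Etv6 intervals, and 13.9% of gTKO regions, against 1 of 39, 10 of 61 and 6 of 28 gTKO members. Counted as merged loci, 34 of 57 at Erg-Ets2, 51 of 91 at Fli1-Ets1 and 21 of 33 at Etv6 were called in both lists, or 58.6% over the 3 windows against 67.0% over all placed regions.

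One-list regions were mostly narrow. Of the 61 control-only members, 48 were under 300 bp, and their median width was 201 bp against 551 bp for control members with a partner. Among control members of 150 to 199 bp, 30 of 37 had no partner (81.1%, 64.8 to 92.0%), against 66.4% of all placed control regions of that width. The share fell to 18 of 35 between 200 and 299 bp (51.4%, against 38.5% overall), 10 of 35 between 300 and 499 bp (28.6%, against 19.1%) and 3 of 47 between 500 and 999 bp (6.38%, against 3.65%). All 16 control members of 1000 bp or more overlapped a gTKO region. In the 4 classes up to 999 bp the members lay above the share over all regions, and in each the interval of the members contained the overall share. Wide members were less frequent here than over all placed regions. They made up 9.41% of control members (16 of 170) at 1000 bp or more against 15.3% of all placed control regions, and 8.59% of gTKO members (11 of 128) against 10.8%. Intervals were not computed for these shares, so counting error may cover the differences, above all the smaller one in gTKO. In the gTKO list, 9 of 27 members of 150 to 199 bp had no control partner (33.3%, 16.5 to 54.0%, against 26.2% overall), and 1 of the 75 members of 300 bp or more. That member was 1 of 28 between 300 and 499 bp (3.57%, against 4.28% of all placed gTKO regions of that width).

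**Figure D2:**
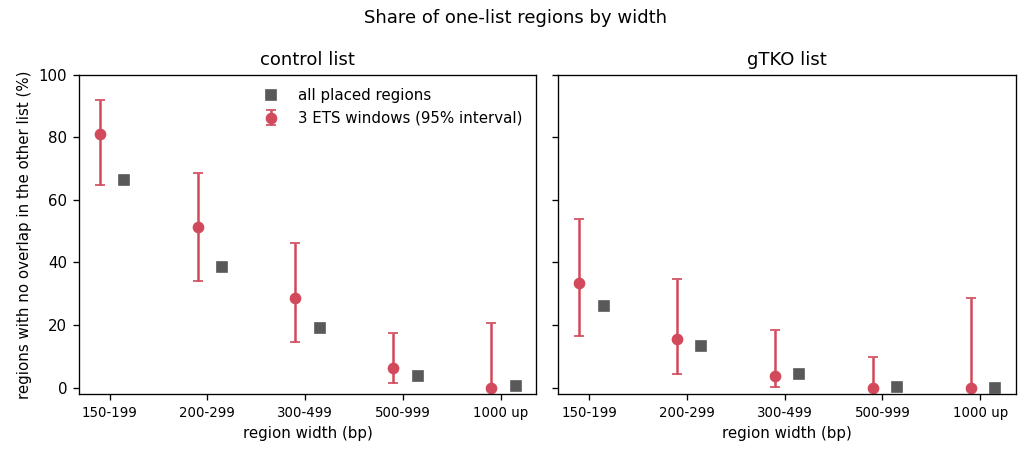
Share of regions with no overlap in the other list (percent, vertical axis) by region width (bp, horizontal axis), for the members of the 3 windows (circles, with exact 95% intervals) and for all placed regions (squares). In the control list the share falls from 81.1% of the narrowest members to 0 of 16 members of 1000 bp or more.

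Much of the accessible sequence of these windows was concentrated in dense stretches, most of all at Erg-Ets2. Regions of both lists were merged and chained where gaps were at most 3 kb, and chains of at least 5 merged regions were called stretches. Control-only regions count toward the 5, so some excess of control regions in stretches follows from this rule. There were 3 stretches at Erg-Ets2, 3 at Fli1-Ets1 and 1 at Etv6. They held 70 of 170 control members (41.2%) and 44 of 128 gTKO members (34.4%), against 12.8% of all placed control and 10.9% of all placed gTKO regions. The overall shares also cover sparser parts of the genome. By window, the control and gTKO shares were 60.3% and 59.0% at Erg-Ets2, 32.1% and 24.6% at Fli1-Ets1, and 28.6% and 21.4% at Etv6. Together the 7 stretches spanned 87.5 kb, or 6.43% of the windows, and held 42.9% of the control and 38.4% of the gTKO covered sequence. All 955 stretches of the genome held 13.1% of control and 11.0% of gTKO covered sequence. In dense stretches in general, the control to gTKO ratio was therefore also above the 1.30 of all placed regions. Within them 29 of 70 control regions were control-only (41.4%, 29.8 to 53.8%), and 0 of 44 gTKO regions were gTKO-only (0 to 8.04%). Over all 955 stretches of the genome, these shares were 39.5% and 7.25%. The control-only share of the ETS stretches was therefore near that of dense stretches in general. Outside the stretches, 32 of 100 control members (32.0%, 23.0 to 42.1%, against 25.2% overall) and 14 of 84 gTKO members (16.7%, 9.42 to 26.4%, against 10.1%) had no partner, so that every gTKO-only member lay outside a dense stretch.

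The largest stretch lay in the Erg-Ets2 window at chr16:95658358-95686069. It extended over 27.7 kb with 22 merged regions, and 41 of the 955 stretches, itself included, had at least as many. The control list placed 22 regions there, covering 11676 bp (42.1% of the stretch), and the gTKO list 15, covering 6973 bp (25.2%), a ratio of 1.67. Its widest region, chr16:95669985-95671828, measured 1844 bp in control and 1407 bp in gTKO. The next widest was 1313 bp in control (chr16:95680287-95681599) and 1104 bp in gTKO. The gTKO regions covered 76.3% and 84.1% of them. Between these 2 regions, 6 of 7 control regions had no gTKO partner, at 260, 189, 236, 504, 206 and 153 bp. The other, of 450 bp, measured 220 bp in gTKO. This part was not set in advance. In dense stretches of the whole genome, 39.5% of control regions had no partner. Among all placed control regions the share was 66.4% at 150 to 199 bp and 38.5% at 200 to 299 bp. The 504-bp region (chr16:95674085-95674588) was the widest control-only region of the window and lay 620 bp from the nearest gTKO region. A further 2 wide control regions of this stretch were split, 1239 bp (chr16:95660402-95661640) into gTKO regions of 780 and 184 bp, and 1178 bp (chr16:95664115-95665292) into 168 and 558 bp.

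Just to its left, the stretch chr16:95649151-95654561 held 5 control regions and 2 gTKO regions. Its control regions of 185, 151, 170 and 243 bp had no partner. The last, of 819 bp (chr16:95653676-95654494), overlapped gTKO regions of 542 and 165 bp. This was the highest ratio of covered sequence among the 7 stretches (1568 to 707 bp, 2.22), and it rested on narrow regions. The stretch had 5 merged regions, the minimum, of which 4 were control-only. Without control-only regions it would not have been called, so its high ratio partly follows from the rule. The remaining stretch of the window, chr16:95562521-95575028, had 8 control and 6 gTKO regions with a ratio of 1.44. Of its 6 pairs, 5 were wider in control, such as 353 against 192 bp and 928 against 699 bp, and 1 was wider in gTKO, at 870 against 716 bp.

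In the Fli1-Ets1 window, the stretch chr9:32347733-32352689 was the most completely covered, with 7 control regions on 91.7% and 5 gTKO regions on 60.3% of its 4957 bp. It contains the widest region of all members, chr9:32348243-32350297, of 2055 bp in control. In gTKO the same sequence held 2 regions of 1305 and 436 bp, which covered 84.7% of it. Control-only regions of 150, 216 and 479 bp lay to its right. The stretch chr9:32512027-32528721 was the longest of the window (16.7 kb), with 13 control regions covering 6415 bp and 7 gTKO regions covering 3674 bp. It included the widest control-only region of all members, chr9:32522556-32523160, of 605 bp, 111 bp from the nearest gTKO region. It also included the pair with the highest width ratio of all members, 625 bp in control (chr9:32525506-32526130) and 158 bp in gTKO, 3.96 times. Control regions of 221 and 518 bp both overlapped a single gTKO region of 662 bp. The stretch chr9:32311504-32318509 had 7 control and 3 gTKO regions, and it reached the minimum of 5 merged regions only through control-only regions. Its wide regions of 617, 1086 and 946 bp measured 541, 631 and 657 bp in gTKO, and its 4 regions of 150 to 184 bp were called in control alone.

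At Etv6, the stretch chr6:133984469-133997666 differed least among the 7, with 8 control regions covering 4783 bp and 6 gTKO regions covering 4072 bp (ratio 1.17). Its leading region, chr6:133984469-133986381, measured 1913 bp in control and 1806 bp in gTKO, and was the widest gTKO region of the 3 windows. The 2 control regions without a partner were of 163 and 173 bp. The other 5 pairs measured 251 and 160 bp, 546 and 354 bp, 457 and 528 bp, 687 and 665 bp, and 593 and 559 bp in control and gTKO, so 1 of the 6 pairs was wider in gTKO.

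**Figure D3:**
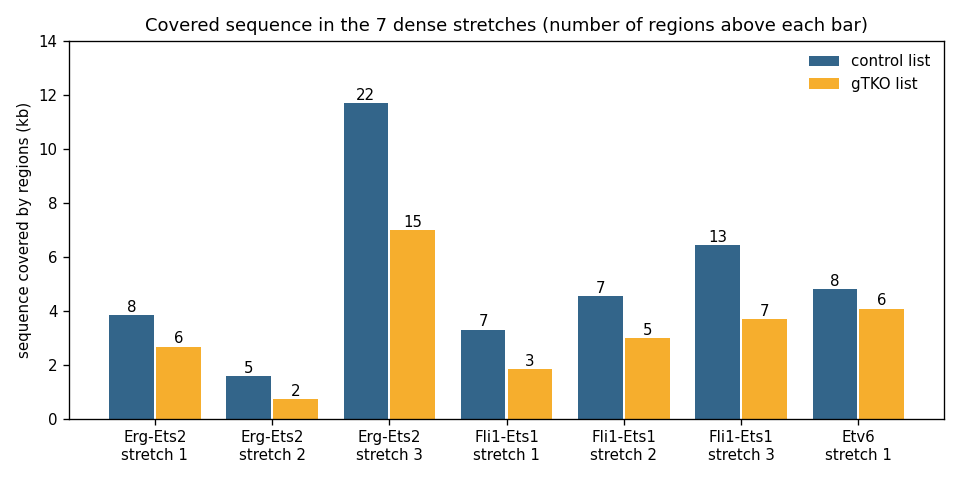
Sequence covered by regions (kb, vertical axis) in each of the 7 dense stretches, in the control list (blue bars) and the gTKO list (yellow bars), with the number of regions above each bar. The control bar is the higher in all 7, by ratios from 1.17 in the Etv6 stretch to 2.22 in stretch 2 of Erg-Ets2. Dense stretches of the whole genome also held a larger share of control (13.1%) than of gTKO (11.0%) covered sequence.

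Where a control region matched a single gTKO region, the control region was usually the wider. The 3 windows held 96 such pairs, and in 76 of them (79.2%, 69.7 to 86.8%) control was wider, as in 79.5% of the 37878 pairs over all placed regions. Control was wider in 23 of 29 pairs at Erg-Ets2 (79.3%), 40 of 48 at Fli1-Ets1 (83.3%) and 13 of 19 at Etv6 (68.4%, 43.4 to 87.4%). The median width ratio was 1.27, 1.28 and 1.06, against 1.15 overall. Pairs in which control was at least 1.5 times as wide made up 17.3% of all pairs. They numbered 9 of 29 at Erg-Ets2 (31.0%), 14 of 48 at Fli1-Ets1 (29.2%) and 4 of 19 at Etv6 (21.1%). These shares rest on few pairs, and intervals were not computed for them, so counting error may cover their distance from the overall share. The opposite, gTKO at least 1.5 times as wide, was found in 2.55% of all pairs, and here in 1, 2 and 0 pairs. The gTKO region lay wholly inside its control partner in 62 of 96 pairs (64.6%, against 62.7% overall). At the median, the control region extended 32 bp further to the left and 60.5 bp further to the right.

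**Figure D4:**
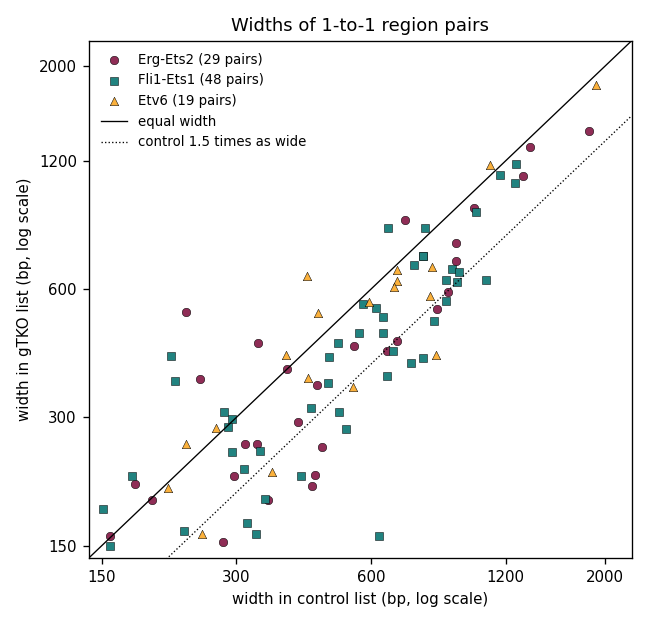
Width of each 1-to-1 pair in the control list (horizontal axis, bp, log scale) and in the gTKO list (vertical axis, bp, log scale), by window. Points under the solid line are wider in control (76 of 96 pairs), and points under the dotted line are at least 1.5 times as wide in control (27 pairs).

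Pairs were also compared inside and outside the dense stretches. Inside them, 31 of 35 pairs were wider in control (88.6%, 73.3 to 96.8%) with a median ratio of 1.33, and outside 45 of 61 (73.8%, 60.9 to 84.2%) with a median ratio of 1.13. These intervals overlap. Over all placed pairs the shares were 81.0% and 79.3%, with median ratios of 1.20 and 1.15. A small cluster at the right end of the Fli1-Ets1 window, chr9:32613706-32644260, ran against the rest of that window. Its 3 control regions of 214, 655 and 219 bp measured 417, 833 and 366 bp in gTKO, and a gTKO-only region of 184 bp followed. The covered sequence there was 1088 bp in control and 1800 bp in gTKO. In the Erg-Ets2 window, the cluster chr16:95807056-95834174 also had more covered sequence in gTKO (1096 bp) than in control (863 bp). Its control regions of 454, 178 and 231 bp measured 357, 209 and 530 bp in gTKO, so 2 of these 3 pairs were wider in gTKO. The last of these, chr16:95833651-95833881, was the pair with the lowest control to gTKO ratio in the window, the gTKO region being 2.29 times as wide. Both clusters were singled out after their values were seen.

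Right of the widest gap in the Erg-Ets2 window, the lists were closer. That gap, chr16:95834175-95923341, was 89.2 kb long and held no region in either list. Beyond it, 7 control regions covered 4234 bp and 5 gTKO regions 3572 bp, a ratio of 1.19. The leading region there, chr16:95923342-95924703, measured 1362 bp in control and 1294 bp in gTKO. The control-only regions of this part were 2 of 159 bp each. Left of the gap, the group chr16:95623482-95686069, which contains 2 of the dense stretches, had 30 control and 18 gTKO regions covering 14413 and 8219 bp. It held 30 of the 58 control regions of the window and 15 of the 23 control-only regions. Control-only regions were thus 15 of its 30, against 39.7% in the window. The share was 39.5% in all dense stretches and 27.0% over all placed control regions. The control-only region chr16:95771671-95772128, of 458 bp, lay 35.0 kb from any gTKO region. In the small group chr16:95730670-95732328, control regions of 340, 230, 584 and 443 bp stood beside gTKO regions of 285, 190 and 207 bp. The last of these formed the pair with the highest ratio of the window (2.14), and the first control region had no partner.

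Wide regions of the Fli1-Ets1 window outside the stretches were also called in gTKO. The control region chr9:32502796-32504597, of 1802 bp, overlapped gTKO regions of 1100 and 215 bp, which covered 73.0% of it. The region chr9:32479347-32480611 measured 1265 bp in control and 1179 bp in gTKO. The left end of the window differed more. In the group chr9:32191100-32221644, 10 control regions covered 4322 bp and 5 gTKO regions 1947 bp, a ratio of 2.22. Of the 10, 6 were control-only, against 38.1% in the window and 27.0% over all placed control regions. Among the 6 was chr9:32201701-32202262, of 562 bp, 5901 bp from the nearest gTKO region. The group chr9:32273260-32285893 held 3 control regions, of 165, 257 and 232 bp, and no gTKO region. Of the 8 gTKO-only regions of the window, the widest were chr9:32221045-32221302, of 258 bp and 61 bp from a control region, and chr9:32410830-32411067, of 238 bp and 3647 bp away.

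The Etv6 window had as many gTKO-only as control-only regions, 6 of each. Without regions under 300 bp in either list these were 1 of 17 gTKO and 2 of 18 control regions, against 6.78% and 24.9% of all placed regions under that rule. Its widest control-only region was chr6:134206339-134206790, of 452 bp, and its next widest chr6:134096482-134096682, of 201 bp. The widest gTKO-only region of all members was chr6:134213313-134213769, of 457 bp, 502 bp from a control region, and a gTKO-only region of 244 bp (chr6:134212985-134213228) preceded it. Both followed the pair with the highest ratio of this window, 838 bp in control (chr6:134211973-134212810) and 420 bp in gTKO, whose control region ended 430 bp further right. The pair with the lowest ratio measured 432 bp in control (chr6:134157724-134158155) and 643 bp in gTKO. In the middle of the window, wide regions went both ways. Control regions of 167 and 1367 bp overlapped a single gTKO region of 1442 bp (chr6:134093625-134095066), and chr6:134097723-134098827 measured 1105 bp in control and 1176 bp in gTKO. Next to it, chr6:134101773-134102586 measured 814 bp in control and 579 bp in gTKO. A control region of 987 bp (chr6:134139322-134140308) overlapped gTKO regions of 651 and 156 bp, which covered 71.1% of it. The 156-bp region overlapped it by 51 bp and extended beyond it.

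Over the 3 windows, 8 control regions overlapped 2 gTKO regions by at least 1 bp each. Of them, 5 lay at Erg-Ets2, 2 at Fli1-Ets1 and 1 at Etv6, which is 4.71% of control members against 5.28% of all placed control regions. Not all of these control regions contained both partners. At Erg-Ets2, a control region of 349 bp met its second gTKO region, of 166 bp, by 1 bp. In the opposite direction, 1 gTKO region in each window overlapped 2 control regions, or 2.34% against 1.07%. Both shares rest on few members.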

How the data were processed

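The positions of ATAC-seq peaks were taken from 2 lists deposited by the authors, 1 per genotype, with 3 columns (sequence name, start, end) without score, p-value or summit. Bowtie2, Picard, MACS2 and bedtools are among the tools, and mm9 is the build, per the submitters' processing notes. The calling threshold, the filters and any pooling of reads were not given in the sources used here. The 16 RNA-seq libraries were not analysed here.

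Peaks within a list did not overlap, so each is 1 region. Regions were compared on placed chromosomes, by overlap of at least 1 bp. Shares have exact 95% Clopper-Pearson intervals. Dense stretches chain merged regions with gaps of at most 3 kb, at least 5 per chain. Regions were named by width within each window, and groups separated by gaps over 20 kb were formed after seeing the data. Members and lists were chosen with earlier results of these data known. Planned counts at other ETS genes and at cell type markers need an mm9 annotation and were not run. The overlap procedure was tested on simulated data. Python 3.11.15, numpy 2.4.6, pandas 2.3.3, scipy 1.17.1 and matplotlib 3.10.9 were used.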

Additional observations from a re-analysis of the deposited data

How the results depend on the processing

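Of 75 alternative values for 15 results, 56 stayed within 1.5 times the reported count or ratio, or within the reported interval of a share, 19 moved and 0 reversed. Taking membership of a window by any overlap returned each reported value unchanged, so those values add to the 56 without testing the results. A count has no direction to reverse, so the last number bears on the ratios and shares only. Leaving out regions under 300 bp, control-only and gTKO-only counts became 12 of 31 and 2 of 21 at Erg-Ets2, 16 of 49 and 3 of 37 at Fli1-Ets1, and 2 of 18 and 1 of 17 at Etv6, against 24.9% and 6.78% of all placed regions. When narrow control regions were removed until the lists were equal in number, control-only counts were 14 of 48, 21 of 71 and 3 of 24 in the same order (20.2% over all placed regions), and 1 gTKO-only region of 39 appeared at Erg-Ets2. Both settings remove narrow partners or narrow regions by construction. A required cover of 50% in both regions gave 10 gTKO-only regions of 39 at Erg-Ets2, in place of 0 (24.6% over all placed regions). Counting a region within 500 bp as shared left 16 of 58 control regions at Erg-Ets2, 24 of 84 at Fli1-Ets1 and 3 of 28 at Etv6 as control-only. The gTKO-only counts were then 0 of 39, 5 of 61 and 5 of 28 in the same order. The share over all placed regions under this rule was not computed, so these counts have no background. Dense stretches of at least 10 regions numbered 1, 1 and 0. A gap of at most 10 kb gave 6 stretches at Fli1-Ets1 and 3 at Etv6, and chaining the control list alone gave 2 at Etv6. Chaining the gTKO list alone gave 2 stretches at Erg-Ets2 and 2 at Fli1-Ets1, in place of 3 each, and 1 at Etv6. These counted as within 1.5 times the reported number. No paired analysis was possible because the 3 libraries of a genotype share a single list, and so no replicate could be left out. Depth is unknown, so what it limits was not tested.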
